A study of Mus musculus with 2 samples.

Results

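The genes described here encode peptidases of the kidney brush border (Ggt1, Anpep, Mme, Dpep1, Mep1a, Mep1b and Dpp4) and villin, the actin-bundling protein of the microvillus core (Vil1). They are 8 of the 21755 protein-coding genes annotated on the autosomes and X. They were taken by name, not by a threshold on a measured value, and every peak, footprint and listed base in the gene body plus 10 kb on each side was collected, by promoter and by distal site. The assay was DNase-seq, in which the nuclease DNase I cuts DNA that is not packed in nucleosomes and the cuts are counted along the genome. There was 1 group, whole kidney from B6CASTF1/J females at 8 to 10 months of age, with 2 libraries labelled biological replicates 1 and 2. B6CASTF1/J mice are F1 hybrids of C57BL/6J and CAST/EiJ, and the files do not separate the parental alleles. Both libraries carry the same donor entry and nothing says whether they came from separate animals, so the spread given as SD (n = 2) may be technical. With a single group there was no treatment or genotype to compare and no test between groups was possible.

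Brush border peptidases sit on the apical membrane of the proximal tubule, facing the filtrate, and cut filtered peptides to di-peptides, tri-peptides and amino acids that the same cells take up. Gamma-glutamyl transferase (Ggt1) removes the glutamyl group of glutathione, and the dipeptidase Dpep1 then splits cysteinylglycine. Aminopeptidase N (Anpep) and dipeptidyl peptidase 4 (Dpp4) trim peptides from the amino end, neprilysin (Mme) cuts within small peptides, and the meprin subunits (Mep1a and Mep1b) form oligomeric metalloproteases. Several of these genes are also known for high expression in the small intestine, and Ggt1 is known for its many alternative promoters. In whole tissue, fewer cells with an open site and less open DNA per cell cannot be told apart.

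The following sequences are open promoters with footprints of both libraries outside annotated untranslated regions. Other open promoters with such footprints, at Ggt1, Dpep1, Mep1a and Vil1, are not printed. A footprint is a short stretch protected from cutting inside an open region, as called in the deposited files. Capitals mark bases inside a footprint of both libraries, the letters are those of the mouse reference GRCm38 and not of the CAST/EiJ allele, and each is printed along the gene's own strand. The first belongs to the strongest region of all 8 genes and the second holds the site TGACGTCA in its last footprint.
Ggt1 promoter 3, chr10:75565881-75566180, plus strand: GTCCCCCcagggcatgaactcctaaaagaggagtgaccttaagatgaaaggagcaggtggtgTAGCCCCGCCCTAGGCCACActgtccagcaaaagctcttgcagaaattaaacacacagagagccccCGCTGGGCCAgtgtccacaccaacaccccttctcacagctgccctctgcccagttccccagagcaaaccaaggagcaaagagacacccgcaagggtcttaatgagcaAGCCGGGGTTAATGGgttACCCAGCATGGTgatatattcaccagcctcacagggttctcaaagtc
Ggt1 promoter 5, chr10:75571341-75571525, plus strand: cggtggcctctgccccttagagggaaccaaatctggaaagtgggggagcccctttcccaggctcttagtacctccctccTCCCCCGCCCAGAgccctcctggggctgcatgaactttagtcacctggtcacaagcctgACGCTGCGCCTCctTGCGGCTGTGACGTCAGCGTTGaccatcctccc
Mme promoter 2, chr3:63295950-63296094, plus strand: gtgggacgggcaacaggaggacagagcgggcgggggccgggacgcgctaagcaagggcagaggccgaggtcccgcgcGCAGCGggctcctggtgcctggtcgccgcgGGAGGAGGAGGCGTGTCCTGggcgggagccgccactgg
Dpep1 promoter 1, chr8:123186061-123186241, plus strand: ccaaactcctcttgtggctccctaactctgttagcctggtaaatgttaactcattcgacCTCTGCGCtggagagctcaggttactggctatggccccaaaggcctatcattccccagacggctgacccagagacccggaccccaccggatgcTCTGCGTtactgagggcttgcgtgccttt
Vil1 promoter 1, chr1:74409161-74409375, plus strand: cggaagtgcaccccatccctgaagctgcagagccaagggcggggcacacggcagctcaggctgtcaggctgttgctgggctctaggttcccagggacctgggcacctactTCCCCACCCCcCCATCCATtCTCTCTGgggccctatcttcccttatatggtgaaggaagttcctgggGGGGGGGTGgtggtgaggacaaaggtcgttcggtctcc

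The next set shows the 5 strongest distal regions of these genes, the region downstream of Dpep1 with the largest excess in replicate 2, and the upstream region of Mep1a, which was lower in replicate 2. They include sites where the libraries differ more than 2-fold and a site where they are close, and 3 of them hold a CTCF-like sequence described further on. Other distal sites that differ more than 2-fold, such as intron 2 of Dpp4, are not printed.
Dpep1, 4.65 kb upstream, chr8:123181461-123181720, plus strand: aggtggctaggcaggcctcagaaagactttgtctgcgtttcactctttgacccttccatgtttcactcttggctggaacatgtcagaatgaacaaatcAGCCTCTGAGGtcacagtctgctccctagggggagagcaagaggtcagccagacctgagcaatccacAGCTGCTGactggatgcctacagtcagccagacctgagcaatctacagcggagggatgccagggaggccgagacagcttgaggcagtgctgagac
Anpep, intron 10, chr7:79837341-79837580, minus strand: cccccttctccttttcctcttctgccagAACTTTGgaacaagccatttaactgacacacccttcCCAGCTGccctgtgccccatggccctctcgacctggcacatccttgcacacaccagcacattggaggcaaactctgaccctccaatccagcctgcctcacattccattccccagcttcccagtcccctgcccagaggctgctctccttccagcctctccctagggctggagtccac
Ggt1, downstream, chr10:75586321-75586520, plus strand: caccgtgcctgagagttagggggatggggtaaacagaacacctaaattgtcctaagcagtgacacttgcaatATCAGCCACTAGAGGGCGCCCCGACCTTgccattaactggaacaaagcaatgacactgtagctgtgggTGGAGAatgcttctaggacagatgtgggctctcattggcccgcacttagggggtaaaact
Mme, intron 1, chr3:63297901-63298080, plus strand: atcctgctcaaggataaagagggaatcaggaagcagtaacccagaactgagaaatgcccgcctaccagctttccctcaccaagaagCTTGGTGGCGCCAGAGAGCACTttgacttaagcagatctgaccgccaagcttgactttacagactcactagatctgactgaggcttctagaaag
Dpep1, intron 1, chr8:123190841-123191020, plus strand: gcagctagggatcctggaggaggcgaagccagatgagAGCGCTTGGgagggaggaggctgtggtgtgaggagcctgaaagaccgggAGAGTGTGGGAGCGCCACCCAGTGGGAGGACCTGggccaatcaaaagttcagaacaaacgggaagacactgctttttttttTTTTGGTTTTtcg
Dpep1, downstream, chr8:123202421-123202640, plus strand: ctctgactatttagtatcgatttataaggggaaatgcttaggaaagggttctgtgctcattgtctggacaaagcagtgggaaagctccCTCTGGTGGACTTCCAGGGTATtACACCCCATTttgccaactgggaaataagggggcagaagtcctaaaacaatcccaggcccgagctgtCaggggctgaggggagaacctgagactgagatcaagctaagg
Mep1a, 1.61 kb upstream, chr17:43504261-43504500, minus strand: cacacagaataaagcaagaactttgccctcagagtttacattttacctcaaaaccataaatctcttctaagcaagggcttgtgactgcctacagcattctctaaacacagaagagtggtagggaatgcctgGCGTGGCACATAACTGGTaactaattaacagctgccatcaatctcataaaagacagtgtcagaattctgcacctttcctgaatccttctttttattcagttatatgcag

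The deposited lists held 137060 peaks in replicate 1 and 124976 in replicate 2, with median signals of 0.744 and 0.8. Overlapping peaks of both libraries were joined into regions, and a region with a peak of each library is called shared. Of all joined regions, 60.4% were shared, 96735 in number. The tissue label was checked against markers fixed for this work: all 10 proximal tubule genes had an open promoter, and none of 6 immune genes had one. For endothelium the count was 5 of 5, for stroma 4 of 5 with Acta2 not open, and for intestinal epithelium 2 of 6, with Cdx1, Cdx2, Fabp2 and Muc2 not open.

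Of the 8 genes, 7 had an open promoter, meaning a shared region within 500 bases of an annotated start, against 64.2% of all protein-coding genes. Mep1b was the exception. CpG dinucleotides were counted from 250 bases before to 50 bases after the 5′-most start of each promoter. By this measure 7 of the 8 genes had only CpG-poor promoters, with an observed over expected ratio under 0.6, and Anpep was the exception. Over all protein-coding genes the share with only CpG-poor promoters was 49.2%. Where starts were joined into a promoter, the later ones were not measured. For Mme promoter 2 the window (ratio 0.23) lay around 63295266, outside its strongest region at chr3:63295941-63296240. The CpG-poor call of Mme therefore does not describe that region. Among all genes with only CpG-poor promoters, 36.1% were open. Within the 8 genes, starts closer than 500 bases were joined to give 31 promoters, of which 15 were open, beside 35.0% of the promoters of all protein-coding genes. Some promoters begin only retained introns or processed transcripts, in both counts. Here these are Ggt1 promoter 9, Anpep 4, Mme 4, Mep1a 2, Dpp4 2 to 4, and Vil1 3 and 4. Of these, only Mep1a promoter 2 was open. Mme promoter 3 counts as open only through a region that is also counted for Mme promoter 2. Around the genes there were 69 regions in any library and 51 of them were shared (73.9%), namely 19 at the genes' own promoters, 3 at promoters of neighbouring genes and 29 distal ones. The shared distal regions numbered 3 per gene as a median, against 2 over all protein-coding genes, without adjustment for gene length.

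The deposited signal is the highest value inside a peak, so the signal of a region does not grow with the length of a gene. The strongest promoter of a gene is a maximum over its annotated promoters, 9 for Ggt1 and 2 to 4 for the others. It can therefore rise with their number. Ggt1 had the strongest promoter, with 8.26 in replicate 1 and 5.37 in replicate 2, or 6.81 ± 2.04 (SD, n = 2). Anpep followed with 2.85 and 3.25 (3.05 ± 0.282), Mme with 2.55 and 2.34 (2.44 ± 0.144), and Dpp4 with 2.21 and 2.45 (2.33 ± 0.172). The libraries of Mme and Dpp4 overlapped, so these neighbours did not differ beyond their spread. Mep1a had 2.17 and 2.06 (2.11 ± 0.0756), Dpep1 had 1.48 and 1.32 (1.4 ± 0.115), and Vil1 had 1.33 and 0.934 (1.13 ± 0.281). Dpep1 and Vil1 also overlapped, while the libraries of every other pair of neighbours in this order did not overlap. Only Ggt1 lay above the median of open genes, which was 4.75 for the strongest promoter of each gene. Its promoter stood at the 64.7th percentile of open genes, Anpep at the 34.8th and Vil1 at the 13.5th. Open genes with only CpG-poor promoters had a median of 2.36. Both libraries of Ggt1 and of Anpep lay above it, and both libraries of Mep1a, Dpep1 and Vil1 lay below it. For Mme and for Dpp4 the libraries lay on either side of it. Anpep itself was not among the genes with only CpG-poor promoters.

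**Figure D1:**
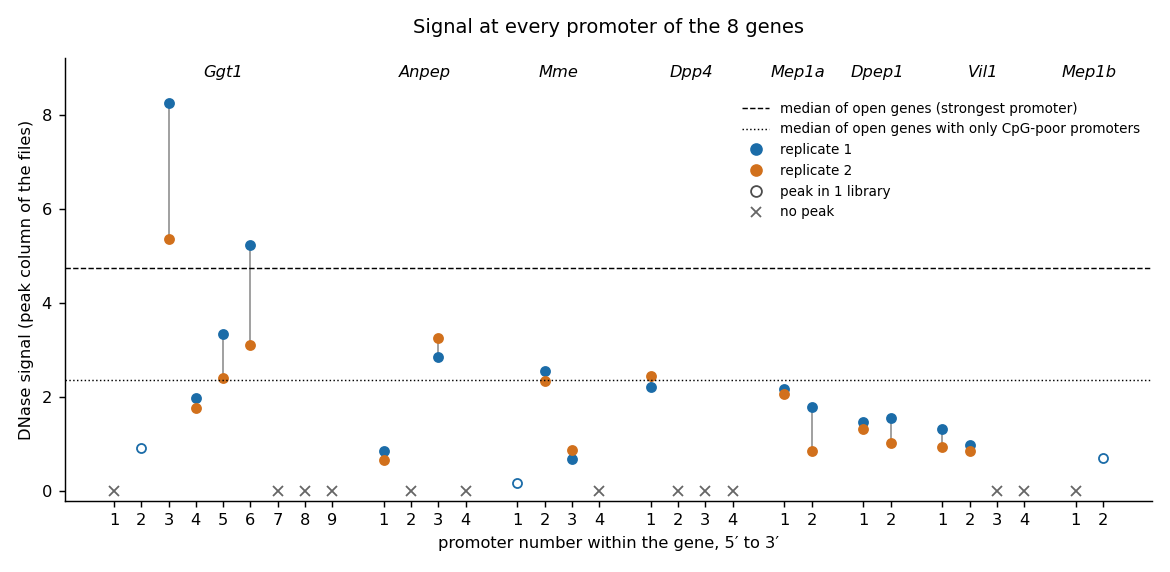
Highest DNase signal (vertical axis, as deposited) at each of the 31 promoters of the 8 genes (horizontal axis, numbered 5′ to 3′ within a gene); filled points are the libraries of a shared region, open points a peak of 1 library, crosses no peak, and the lines the medians of open genes. Ggt1 reaches 8.26 and 5.37 at promoter 3, above the dashed line at 4.75, and Mep1b has a peak of 0.711 in replicate 1 alone.

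Ggt1 (chromosome 10, plus strand, bases 75561604 to 75586200 in GRCm38) had 9 annotated promoters, the most of the 8 genes, and 4 were open. Promoter 3 was strongest and its region, at chr10:75565881-75566280, ended just before the starts at 75566293 and 75566298. Promoter 6 had 5.24 in replicate 1 and 3.12 in replicate 2 (4.18 ± 1.5), promoter 5 had 3.35 and 2.41 (2.88 ± 0.664), and promoter 4 had 1.99 and 1.78 (1.88 ± 0.153). Promoter 4 is where 6 of the 20 transcripts begin, including the main coding transcript, yet it was the weakest of the open promoters. Main here means the longest coding sequence among the transcripts tagged basic in GENCODE. Ties were broken by transcript identifier. Both libraries of promoters 3, 5 and 6 lay above both libraries of promoter 4. A second region near promoter 6 had 1.11 and 0.942. Promoter 2 had a peak of 0.926 in replicate 1 and none in replicate 2, and promoters 1, 7, 8 and 9 had no peak in either library. All 5 of the gene's own promoter regions were lower in replicate 2, with log2 ratios from −0.75 at promoter 6 to −0.17 at promoter 4. The span of Ggt1 had the largest share of bases listed at an FDR under 0.05 in both libraries, 8.37%, against 2.72% around all 8 genes together and 1.3% of the genome. The genome figure includes DNA far from genes, and the share in such spans around all protein-coding genes was not computed.

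Dpep1 (chromosome 8, plus strand, bases 123186242 to 123201812) showed the reverse arrangement. Its strongest promoter stood at the 16.9th percentile of open genes. The upstream and intron 1 distal sites exceeded both promoters in both libraries, and the site beyond the 3′ end did so in replicate 2 alone. Promoter 1, at chr8:123186061-123186360, had 1.48 and 1.32, and promoter 2, in intron 1, had 1.55 and 1.02 (1.28 ± 0.374), so the promoters did not differ beyond their spread. The region 4.65 kb upstream, at chr8:123181461-123181720, had 3.36 in replicate 1 and 3.23 in replicate 2, or 3.3 ± 0.0862 (SD, n = 2). It was the strongest distal region of the 8 genes and both of its libraries lay above both libraries of either promoter. The intron 1 region at chr8:123190841-123191020 had 1.87 and 2.88 (2.38 ± 0.719), and the region beyond the 3′ end at chr8:123202421-123202640 had 0.959 and 2.47 (1.71 ± 1.07). Both of these were higher in replicate 2, as was a weak second region of promoter 1, with 0.529 and 0.609, whereas the upstream region and the strongest region of each promoter were lower there. No peak around Dpep1 was found in 1 library alone, which held also for Vil1 and for none of the other 6 genes.

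Anpep (chromosome 7, minus strand, bases 79821803 to 79861059) had 4 promoters and 2 were open. The open promoter 3, with its start at 79842352, begins a protein-coding transcript that is also tagged basic. That start lies in exon 2 of the main coding transcript, and the region at chr7:79842221-79842480 carried 2.85 and 3.25. Whether these transcripts differ in coding length is not given here. The start of the main coding transcript, promoter 2 at 79848183 to 79848210, had no peak in either library. It was the only promoter of the set not called CpG-poor around its 5′-most start, with an observed over expected ratio of 0.81 and 72.3% G and C. Promoter 1, far upstream at 79861059, had a weak region of 0.852 and 0.667 (0.759 ± 0.131). Aminopeptidase N is known to be made from separate promoters in myeloid and in epithelial cells, and the labels do not link an annotated start to a cell type. Inside the gene, intron 10 held a region at chr7:79837341-79837580 with 3.9 in replicate 1 and 1.78 in replicate 2 (2.84 ± 1.5), a log2 ratio of −1.14. Intron 15 held one at chr7:79828441-79828660 with 2.21 and 2.08 (2.15 ± 0.0871), where the libraries were close.

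Mme (chromosome 3, plus strand, bases 63241537 to 63386030) is the longest of the genes, 144 kb, and its strongest sites lay near the start of the coding transcripts, with 5 of its 9 shared regions 28.8 to 89.6 kb further on. Promoter 2 joins 5 transcripts and held 3 regions, of which the strongest, at chr3:63295941-63296240, had 2.55 and 2.34. The weakest of the 3, at chr3:63296361-63296820, had 0.678 and 0.875 (0.777 ± 0.14). It also lay within 500 bases of promoter 3, ended before that promoter's start at 63297052, and was the only region there. The far upstream promoter 1 had a peak of 0.174 in replicate 1 only, the weakest peak around any of the genes, and promoter 4 had none. The intron 1 region at chr3:63297901-63298080, 2.43 kb into the gene, had 2.01 and 3.21 (2.61 ± 0.849), and its libraries spanned those of the promoter. Further in, intron 9 held a region at chr3:63340521-63340920 with 2.03 and 1.2 (1.61 ± 0.583). All 5 distal regions beyond intron 1 were lower in replicate 2.

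Dpp4 (chromosome 2, minus strand, bases 62330073 to 62412231) had 1 open promoter of 4, with 2.21 and 2.45 over a broad region at chr2:62411541-62412020. Dpp4 promoters 2 to 4 begin no protein-coding transcript. Its distal regions were weak: the strongest, in intron 2 at chr2:62403661-62404014, had 1.11 in replicate 1 and 0.384 in replicate 2 (0.746 ± 0.512), a log2 ratio of −1.53, the lowest of the 51 shared regions. The others had 0.378 ± 0.0154 and 0.27 ± 0.00428. Dpp4 also had the second-lowest share of bases listed in both libraries, 1.18%, close to the 1.3% of the whole genome.

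The meprin genes differed from each other. Mep1a (chromosome 17, minus strand, bases 43474324 to 43502812) had both promoters open. Promoter 1, at chr17:43502681-43502880, had 2.17 and 2.06, and promoter 2, in intron 3 and the start of a processed transcript only, had 1.79 and 0.859 (1.32 ± 0.656). Its strongest distal region, in intron 3 at chr17:43501721-43501940, had 1.99 and 1.18 (1.59 ± 0.572), and the region 1.61 kb upstream had 1.68 and 0.659 (1.17 ± 0.721). All 5 shared regions of Mep1a were lower in replicate 2, with log2 ratios from −1.35 to −0.07, beside 50.6% of all shared regions that were lower there. Mep1a also had 4 weak regions in replicate 2 alone, with signals of 0.325 to 0.45.

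Mep1b, on chromosome 18, had no shared region at either of its 2 promoters. At promoter 2 replicate 1 had a peak of 0.711 and replicate 2 had none, and replicate 2 listed no base there under an FDR of 0.05. Replicate 1 alone also held 3 further regions, among them one of 1.17 at 4.48 kb upstream of the coding start. The 2 shared regions were distal and both lower in replicate 2: 12.8 kb upstream the signals were 1.91 and 0.834 (1.37 ± 0.761), and in intron 6 they were 0.934 and 0.567 (0.751 ± 0.26). Around Mep1b 1587 bases were listed in replicate 1 and 330 in replicate 2, the widest gap among the genes. All 330 were listed in both libraries. The call of Mep1b as not open therefore rests on replicate 2: from replicate 1 alone all 8 genes had an open promoter.

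Vil1 (chromosome 1, plus strand, bases 74409376 to 74435559) is no peptidase, and its strongest promoter was the weakest among those of the 7 open genes. Promoter 1, at chr1:74409161-74409400, had 1.33 and 0.934, promoter 2 had 0.984 and 0.859 (0.921 ± 0.0885), and promoters 3 and 4 had no peak. Its strongest region was distal, in intron 2 at chr1:74415201-74415480, with 1.16 and 1.66 (1.41 ± 0.355), but its libraries overlapped those of promoter 1. This intron region contains a tandem repeat, with an identical stretch of 41 bases present more than once, and its part in the signal was not tested. An exact repeat of 20 bases or more occurred in 2.43% of all shared regions and in 2 of the 51 here, the other being the upstream region of Dpep1, with a repeat of 21 bases.

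**Figure D2:**
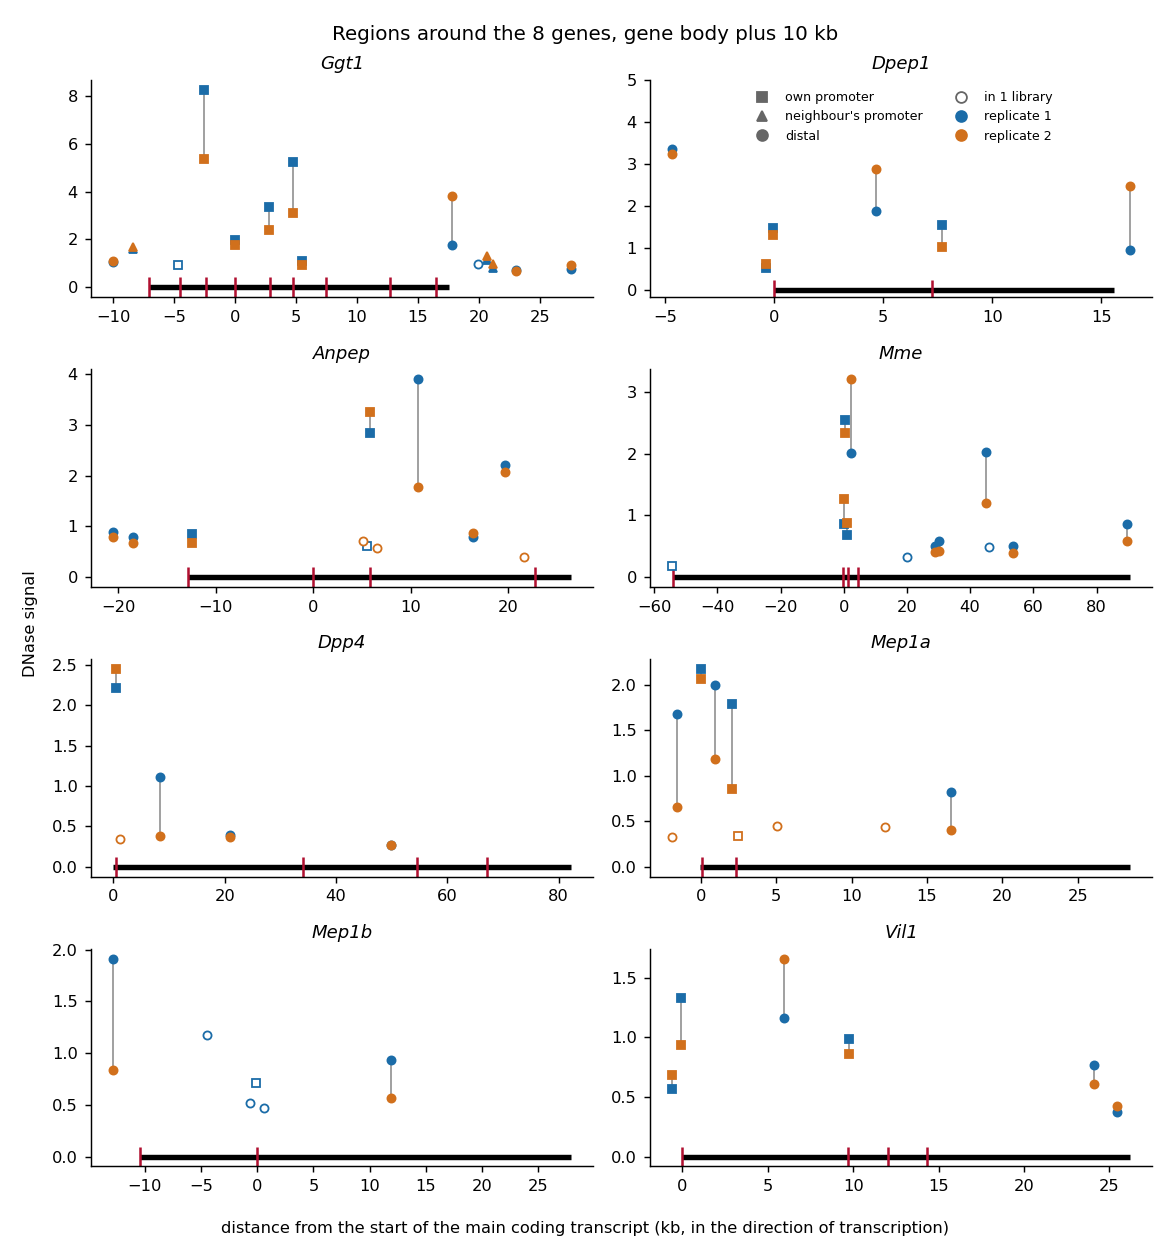
DNase signal (vertical axis) is shown for every region in the gene body plus 10 kb. The horizontal axis is the distance from the start of the main coding transcript (kb, in the direction of transcription). Lines join the libraries of a shared region, black bars are the gene bodies and red ticks the promoters. Ggt1 carries its highest signals at its promoters, Dpep1 at 4.65 kb upstream (3.36 and 3.23), and Mep1b has 4 open symbols in replicate 1.

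The per-base FDR of the cut rate, a separate deposited file, did not always follow the signal. At the Mep1a promoter the signals were close, 2.17 and 2.06, while the lowest FDR was 2.83e-13 in replicate 1 and 5.56e-23 in replicate 2. At the Dpep1 upstream region the signals were 3.36 and 3.23 and the lowest FDR was 8.63e-39 and 2.28e-18, the opposite direction. At promoter 3 of Ggt1 signal and FDR moved together, with 1.22e-42 in replicate 1 and 1.73e-28 in replicate 2. Mep1a had more bases listed in replicate 2 (2462) than in replicate 1 (1965) although all its shared regions had the lower signal there. It also had 4 regions in replicate 2 alone, and their part in the listed bases was not computed. What each library's FDR was measured against is not given in the sources used here.

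**Figure D3:**
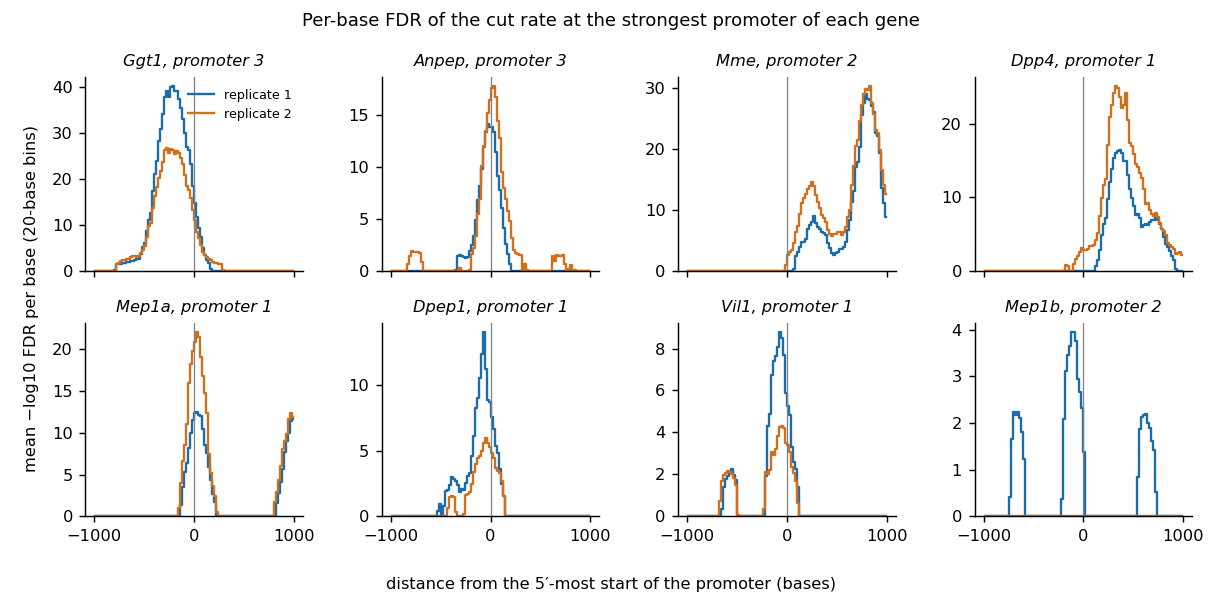
Mean −log10 FDR of the cut rate in 20-base bins (vertical axis, own scale in each panel, bases not listed set to 0) around the 5′-most start of each gene's strongest promoter (horizontal axis, bases). For the 7 open genes the peaks of the libraries lie close to each other, the peak of replicate 2 is higher at Mep1a, Dpp4 and Anpep and lower at Ggt1, Dpep1 and Vil1, and at Mep1b replicate 2 lists nothing.

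Over the 51 shared regions the log2 ratio of replicate 2 to replicate 1 had a median of −0.16, and 33 were lower and 18 higher in replicate 2. Over all 96735 shared regions the median was −0.01 and the share lower in replicate 2 was 50.6%. The genes' own promoter regions had a median of −0.17 and their distal regions one of −0.16. More than 2-fold differences were found at 8 of the 51 regions, beside 11.9% of all shared regions. Of these 8, 6 were lower in replicate 2, namely Dpp4 intron 2, Mep1b upstream, Anpep intron 10 and 3 regions of Mep1a (upstream, at promoter 2 and in intron 9). The regions downstream of Dpep1 (1.36) and of Ggt1 (1.10) were higher.

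Of the 4 regions with the highest ratios, 3 shared a sequence. The long shared footprints in the downstream region of Ggt1, in intron 1 of Dpep1 and downstream of Dpep1, printed above in capitals, each overlap the core of the CTCF motif, 12 letters matched on both strands with at most 1 mismatch. CTCF is the DNA-binding protein best known for boundaries and loops of chromatin in nearly every cell type. This motif was chosen after the sequences and ratios were seen. It occurred in the central 200 bases of 5 of the 51 regions (9.8%), against 16.6% of all shared regions. The log2 ratios of the 5 were 1.36, 1.10, 0.63, 0.26 at a weak upstream region of Vil1, and −0.23 at the second region of Ggt1 promoter 6, so 4 of 5 were higher in replicate 2. Across the genome 86.8% of the 16034 regions with the core were higher in replicate 2, with a median log2 ratio of 0.74 and quartiles of 0.30 and 1.09. In the 80701 regions without it the median was −0.11 and 58.1% were lower in replicate 2. Set beside those, the 46 regions of the genes without the core had a median of −0.17 and 69.6% were lower, and the 26 distal ones had −0.28 with 76.9% lower, against −0.20 and 64.5% for all such regions outside promoters. The intron 1 region of Mme, with a log2 ratio of 0.68 and a long footprint, has no match at this setting.

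**Figure D4:**
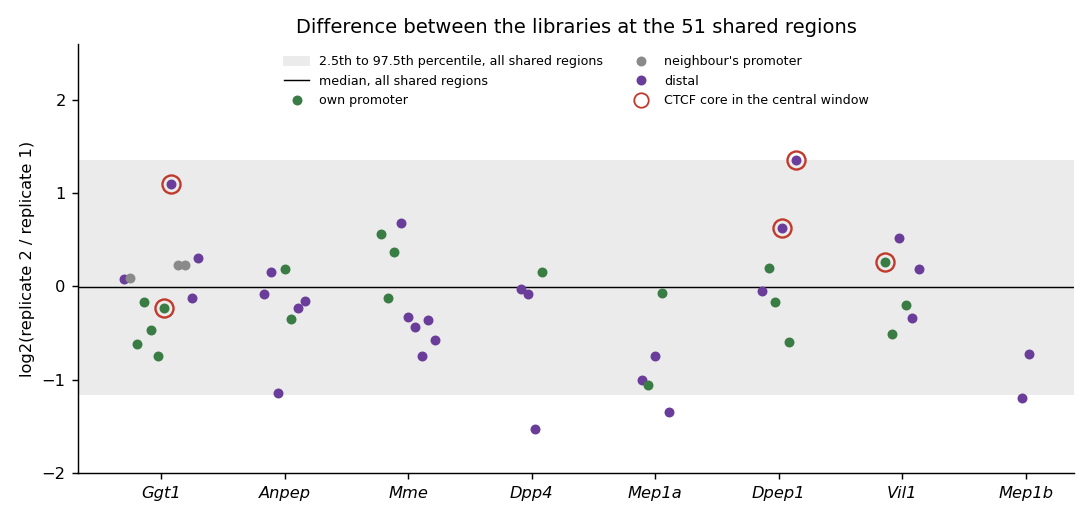
Log2 ratio of the signal of replicate 2 to that of replicate 1 (vertical axis) at each of the 51 shared regions, by gene (horizontal axis) and class (colour); the grey band runs from −1.15 to 1.35 and leaves out the outermost regions of the genome at each end and red rings mark the CTCF core. The 5 regions of Mep1a and the 2 of Mep1b all lie below 0, and 4 of the 5 ringed points lie above 0.

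**Figure D5:**
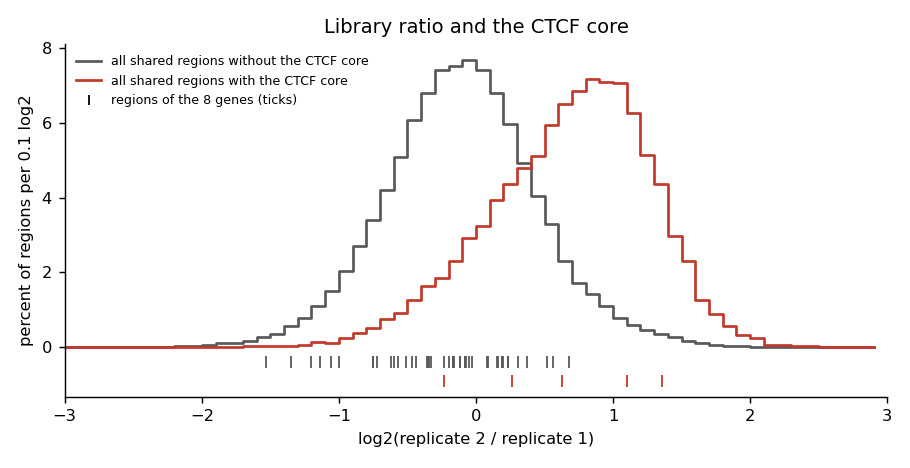
Percent of all shared regions (vertical axis, per 0.1 log2) by log2 ratio of replicate 2 to replicate 1 (horizontal axis), with the CTCF core (red, 16034 regions) and without it (grey, 80701 regions); ticks below are the regions of the 8 genes. The medians are 0.74 and −0.11.

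Markers of other cells moved between the libraries as well. The summed promoter signal of the stroma list was 5.83 in replicate 1 and 11.6 in replicate 2, with a median log2 ratio of 0.46 over 30 regions. Most of that rise came from Col1a1 (3.13 and 7.31) and Pdgfra (1.69 and 3.13), beside Pdgfrb (0.653 and 0.725) and Col1a2 (0.364 and 0.417). For the proximal tubule list the sums were 35.5 and 33 and the median was −0.19 over 71 regions, with 66.2% of them lower in replicate 2. Other lists had similar values: the median was −0.15 for endothelium, with 67.9% lower in replicate 2, and −0.18 for immune genes, with 71.4% lower over 14 regions. Endothelium sums were 9.1 and 9.65, thick ascending limb 8.67 and 5.44, and collecting duct 5.98 and 7.08. The thick ascending limb sum rests on Umod (6.76 and 3.94) and Slc12a1 (1.91 and 1.51). Collecting duct genes went both ways: Scnn1g had 4.2 and 5.92, Atp6v1b1 had 1.78 and 1.16, and Aqp2 was not open. The strongest promoters of the 7 open genes here summed to 20.8 and 17.7, of which Ggt1 gave 8.26 and 5.37. The part of the mixture of cells in the library differences at Ggt1, Mep1a and Mep1b was not tested.

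Footprints were shared by both libraries at 72 places in the 51 regions. A place is a stretch where a footprint of each library overlaps, so a single footprint can count at more than 1 place. Of 130 footprints of replicate 1, 51.5% overlapped one of replicate 2, and of 139 of replicate 2, 49.6% overlapped one of replicate 1, against 56.8% and 56.2% in all shared regions. No shared footprint was found in 20 of the 51 regions, or 39.2%, beside 33.9% of all shared regions. The strongest region, promoter 3 of Ggt1, held the most, 7, and regions of like signal (0.8 to 1.25 times) held 4 as a median. Vil1 promoter 1 held 4 against a median of 1, from 2 footprints of replicate 1 and 4 of replicate 2. Regions of like signal were not matched for width. The Ggt1 locus had 27 of the 72, while Mep1b had none and Dpp4 had 3, all in its promoter region.

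Among 15 motifs searched on both strands in the central 200 bases, only SP/KLF sites and an HNF1 site met a shared footprint. GGGCGG, bound by SP and KLF factors, occurred in 6 of the 51 regions (11.8%) against 17.7% of all shared regions. In 5 of the 6 a match lay in a shared footprint, namely Ggt1 promoters 4 and 5, Mme promoter 2, Dpp4 promoter 1 and the neighbouring Lrrc75b promoter, and at Vil1 promoter 1 it did not. Ggt1 promoter 3 has a further match in a shared footprint, outside the central window. GTTAATG, the core letters of a site for the proximal tubule factor HNF1, occurred in 3 regions (5.88% against 2.91%). One match, at chr10:75566123-75566129, lies in the next-to-last footprint printed for Ggt1 promoter 3. AAGGTCA, the site of ERR receptors, was found in 5 regions (9.8% against 6.7%), TATAAA in 6 (11.8% against 6.04%), TGANTCA of AP-1 in 2 (3.92% against 6.93%) and TGTTTAC of FOX factors in 1 (1.96% against 3.03%). TTTATGG, bound by the intestinal CDX factors, was found in 5 regions around 4 genes (9.8% against 2.02%), in no shared footprint, and neither Cdx1 nor Cdx2 had an open promoter. The match near Ggt1 lies at the promoter of the neighbouring Ggt5, and the match upstream of Mep1a lies in a footprint of replicate 1 alone. No region held the full HNF1, DR1, NF1, long CTCF or glucocorticoid receptor motif, nor CAAAGTCCA (HNF4), CCGGAAG (ETS) or TTGCGCAA (C/EBP), in this window, where all shared regions held them in 0.0372% to 3.88% of cases. Outside the window, CAAAGTCCA occurs at chr10:75566174-75566182 in the region of Ggt1 promoter 3, in no footprint of either library. GTTAATG overlaps the full HNF1 motif and AAGGTCA the DR1 motif where their free position holds the right letter. TGACGTCA, the site of CREB and ATF factors and looked for after the sequences were seen, was found in promoter 5 of Ggt1 only, inside a shared footprint at chr10:75571501-75571508, beside 0.775% of all shared regions. A match is a description of letters and not a bound site.

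Related genes were counted in the same way. Of 26 other brush border and ectoenzyme hydrolases, mostly enzymes that cut peptides, sugars and phosphates at the cell surface, 17 had an open promoter, with a median signal of 2.59 (0.191 to 17.2). That list also holds the cytosolic Acy1 (16.2) and Cltrn (0.982), which has no catalytic domain. The same count was 12 of 12 for peptide transport and glutathione breakdown, with a median of 5.46, and 15 of 16 for structural proteins of the microvillus, with a median of 3.74. It was 9 of 9 for megalin and cubilin endocytosis (median 5.32) and 14 of 15 for renal amino acid transporters (median 2.48). The 7 open genes described here had a median of 2.33. By the same measure around 5′-most starts, CpG-poor genes made up 7 of the 8 here and 21 of the 26 other hydrolases, of which 12 were open. The counts were 6 of 12, 9 of 16, 2 of 9 and 8 of 15 in the other lists. Over the regions of these 5 lists the log2 ratio of replicate 2 to replicate 1 had medians from −0.28 for the amino acid transporters to −0.03 for the other hydrolases.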

How the data were processed

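DNase-seq was measured in 2 kidney libraries. Per the file headers and the labels, the authors made every file from the alignments of 1 library in assembly mm10; no source used here names the aligner, peak caller or footprint tool. The deposited peak signal is the highest value in a peak, and all values are whole multiples of 1 step per library (within 0.05 steps), which would give 120.9 M and 119.9 M tags if a step is 1 tag. The deposited FDR of the cut rate is a q-value per run of bases, listed only under 0.05, and the deposited footprints carry a constant level of 0.01. The longer peak list was used. Overlapping peaks (1 base or more) were joined, and a region takes the highest signal of each library. Starts and exons came from GENCODE M21 and sequences from GRCm38.p6; 98.7% of 44876 first codons were ATG, which checks build and annotation. Motifs were matched as letters. Members, lists and motifs were chosen with earlier results of these data known. All members, each promoter, the strongest distal region of each gene and the 5 strongest distal regions are named. Scripts ran in Python 3.11.15 and were tested on simulated data. Values carry their SD over the libraries (n = 2), no p-value was computed from samples, and precision is limited by the 2 libraries. Of the list genes, Dpep2 and Arh were not matched to 1 gene of that symbol. The podocyte marker list is not reported here.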

Additional observations from a re-analysis of the deposited data

How the results depend on the processing

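With 1 group of 2 libraries no result had a test, and 12 results were recomputed under the alternatives. No paired analysis was possible because there is a single group. The count of 7 genes with an open promoter was 7 under each planned setting except without replicate 2, where it was 8 (7 to 8 over the left-out libraries). The 29 shared distal regions became 14 with the shorter peak list, 14 with the stronger 50% of peaks, 19 in the gene body alone and 71 in the gene body plus 50 kb, and 36 to 37 with either library left out. The 72 places of shared footprints became 130 to 139 footprints of 1 library when the other was left out. The 15233 bases listed in both libraries became 9119 under an FDR of 0.001, and 18528 to 20336 with either library left out. The median log2 ratio of −0.16 ranged from −0.28 in the gene body alone to −0.08 with the stronger peaks, and was −0.17 without the regions holding the CTCF core, an alternative chosen after seeing the data. Promoter signals moved beyond the SD for Mme with a window of 2000 bases (2.61, which takes in the intron 1 region) and for Dpp4 with the sum of joined peaks (2.82). They also did for Dpep1, which spanned 1.32 to 1.55 with a library left out, since promoter 2 is then the strongest in replicate 1. Leaving out a library cannot move a signal beyond the SD of 2 libraries unless another region becomes strongest. That setting is therefore no check for the other genes, and Ggt1 spanned 5.37 to 8.26 under it. For Mep1b a promoter signal exists only in replicate 1 (0.711).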

Other observations

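Shared regions at promoters of neighbouring genes lay within 10 kb of Ggt1 and were counted apart from its own. The promoter of Lrrc75b had 1.6 in replicate 1 and 1.7 in replicate 2 (1.65 ± 0.0743), and 2 regions at the promoter of Ggt5, a relative of Ggt1, had 1.13 and 1.33 (1.23 ± 0.136) and 0.819 and 0.959 (0.889 ± 0.0992). All 3 were higher in replicate 2, with log2 ratios of 0.09, 0.23 and 0.23, while all 5 promoter regions of Ggt1 itself were lower there. The difference between these groups of regions was not tested, since regions of 2 libraries are not replicates. In intron 9 of Mep1a, the region at chr17:43485981-43486420 (0.819 and 0.409) holds a full HNF1 motif outside its central window, at chr17:43486074-43486083, inside a footprint of replicate 1 alone. Replicate 1 had 5 footprints in that region and replicate 2 had none.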
